A study of Rattus norvegicus with 6 samples.

Results

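Solute carriers are membrane proteins that move small molecules into and out of cells and organelles. The 60 genes described here carry organic anions and cations, bile acids, sugars, nucleotide sugars, short and long carboxylates, folate and nucleosides. They were chosen by name: every probe with a single gene symbol in the platform annotation whose symbol began with 1 of 13 family prefixes (Slc2a, Slc5a, Slc10a, Slc16a, Slc19a, Slc22a, Slc27a, Slc28a, Slc29a, Slc35, Slc37a, Slc47a or Slco). Each of the 60 had 1 such probe, and they made up 60 of 5990 genes named on the array. No probe was named for the Slc47a prefix in the annotation used here, and Slc22a12, Slco4c1, Slc5a8, Slc5a12, Slc2a9 and Slc19a2 were likewise not analysed here.

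RNA came from rat kidney transplants taken on day 100, with 3 arrays per group. The tolerated grafts were LEW.1W kidneys (RT1u, from donors 8 to 12 weeks old) in LEW.1A recipients (RT1a) made tolerant with antibodies against donor class II molecules. In this group both native kidneys of the recipient were removed on day 7. The syngeneic grafts were LEW.1A kidneys in LEW.1A recipients, for which the labels give no antibody treatment, donor age or nephrectomy. The strains share their background outside the MHC. MHC mismatch, donor haplotype and antibody treatment differed together and cannot be told apart. Removal of the native kidneys and donor age are given for the tolerated group only. Whether they also differed between groups is not known, and they cannot be told apart from the rest. RNA was made from frozen sections of the graft, so a lower level can come from fewer cells of a type or from less RNA per cell, and these cannot be told apart. The labels do not say whether the 3 arrays per group stand for different animals, so a p-value speaks of the spread among these arrays, which may be technical.

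In the proximal tubule, the first stretch of the nephron after the glomerulus, the cells take up organic anions and cations from the blood side and pass them into the urine. The same cells recover nearly all filtered glucose through sodium-coupled carriers on the urine side and release it to the blood through facilitative carriers. The main organic anion carriers of the Slc22a family exchange their substrates against dicarboxylates, while cation carriers of the same family follow the membrane potential. Nucleoside, folate and monocarboxylate carriers occur in many cell types and serve nucleotide salvage, vitamin supply and lactate exchange.

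Of the 60 genes, 54 passed the filter on dim probes (mean log2 intensity over all 6 arrays above 7.76) and were tested. Levels below are log2 intensities after quantile normalization, and a fold change is tolerated minus syngeneic on that scale with its standard error, from limma fitted over all probes, with Benjamini-Hochberg adjusted p under 0.05 as the threshold. In tolerated grafts 21 of the 54 fell and 4 rose, and 29 did not pass. Organic ion carriers (Slc22a, Slco and Slc10a) held 10 of the 21 falls and 23 of the 54 tested genes, so their share of falls was near that of all carriers. The share past the threshold was 46.3% of these genes, against 25.2% of all 20142 tested probes and 32.7% of the 4955 tested named genes. Lower calls made up 38.9% of the carriers against 17.2% of named genes, and higher calls 7.41% against 15.5%. The median log2 fold change was -0.64 over the 54 carriers, -0.04 over named genes and -0.02 over all probes. The carriers whose groups did not overlap numbered 34 of 54, against a share of 55.7% of named genes and 47.3% of all probes.

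**Figure D1:**
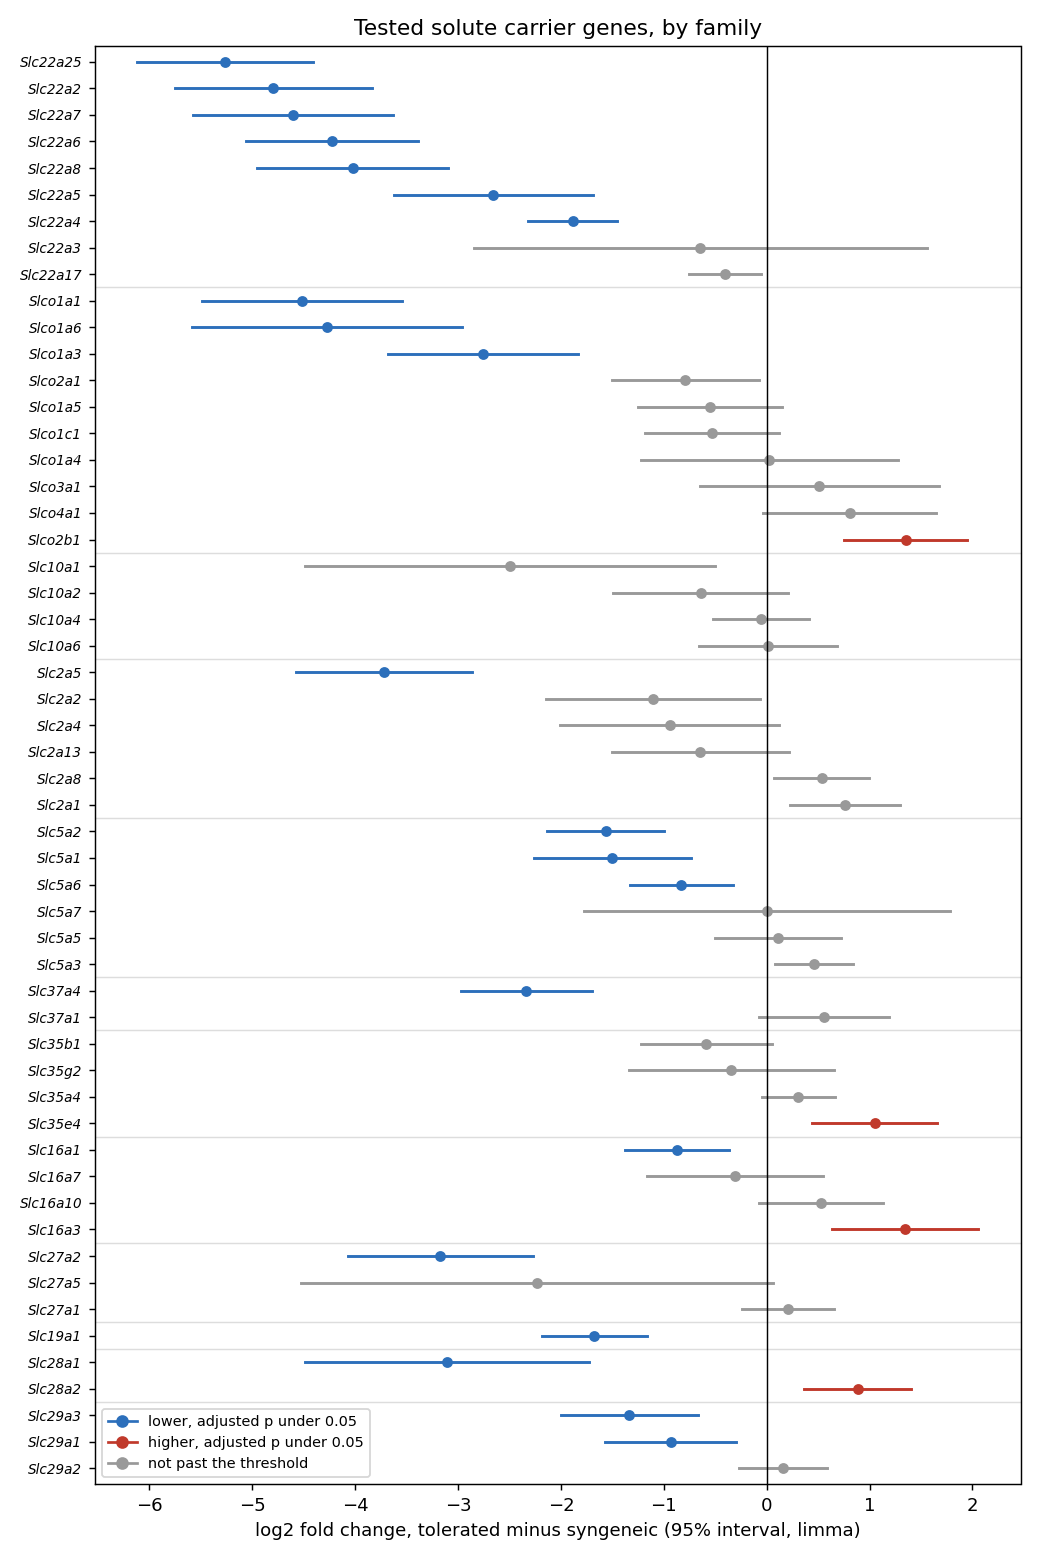
Log2 fold change (horizontal axis, tolerated minus syngeneic) of the 54 tested carriers with 95% confidence intervals from limma, one gene per line and grouped by family, coloured by whether the adjusted p passed 0.05. The 7 genes farthest to the left are 5 of the Slc22a family with Slco1a1 and Slco1a6, and 4 genes (Slco2b1, Slc16a3, Slc35e4 and Slc28a2) lie to the right past the threshold.

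The falls were large for some genes: 13 of the 21 were at least 4-fold and 7 at least 16-fold. Both counts include Slc22a7, whose tolerated mean lay under the filter threshold, so that its fold rests on a level not shown to be above background. With 1 array left out in turn, 15 of the 21 lower genes passed in all 6 fits. These were all 7 lower Slc22a genes, Slco1a1, Slco1a3, Slco1a6, Slc2a5, Slc5a2, Slc37a4, Slc27a2 and Slc19a1. The other 6 (Slc5a1, Slc5a6, Slc16a1, Slc28a1, Slc29a1 and Slc29a3) and all 4 higher genes missed the threshold in at least 1 of these fits. The number past the threshold was 25 with all arrays, 16 without tolerated replicate 2 or syngeneic replicate 2 and 15 without syngeneic replicate 1. The number that rose was 7 without syngeneic replicate 3, 1 without tolerated replicate 2 or syngeneic replicate 2, and 0 without any other array.

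Arrays within a group were not alike. Among the 21 lower genes, syngeneic replicate 3 had the lowest syngeneic level, and so lay nearest the tolerated grafts, for 15. In the tolerated group the highest level was that of replicate 3 for 12 genes and of replicate 1 for 9. The mean level of the 54 carriers, each centred on its own mean over all arrays, was -0.61, -0.78 and -0.35 in tolerated replicates 1 to 3 and 0.71, 0.62 and 0.41 in syngeneic replicates 1 to 3. The groups therefore did not overlap in this mean, and tolerated replicate 3 and syngeneic replicate 3 stood nearest to each other.

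**Figure D2:**
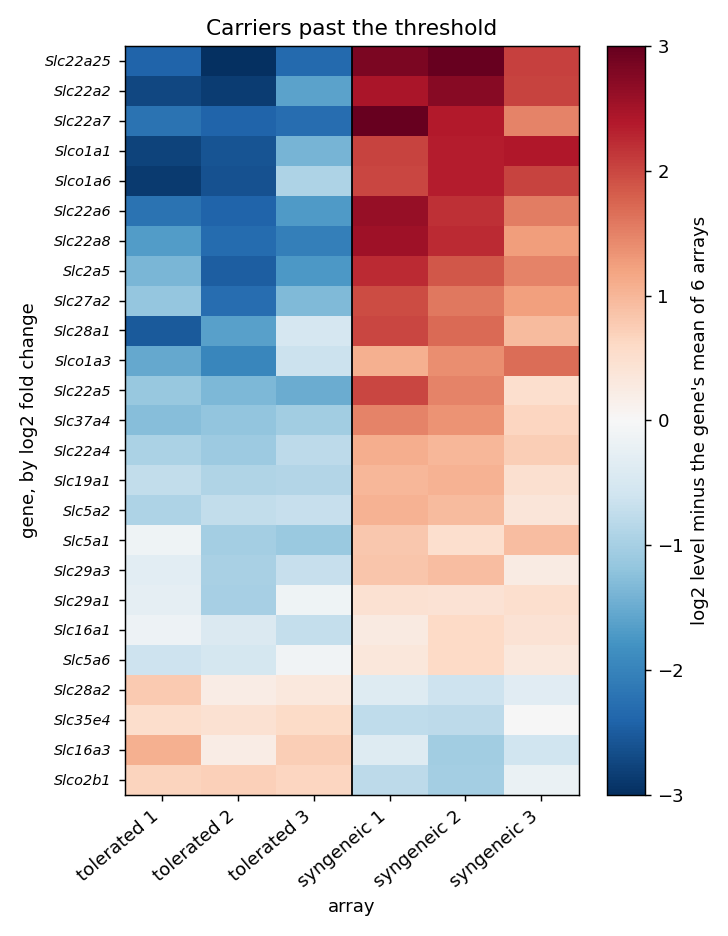
Level of each of the 25 carriers past the threshold in every array, as log2 intensity minus the mean of that gene over the 6 arrays (colour scale, limited to -3 and 3), with genes ordered by log2 fold change. The 21 genes at the top are lower in all 3 tolerated arrays, and syngeneic replicate 3 is paler than the other syngeneic arrays for most of them.

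Markers of some cell types moved with the groups, and their part in the values of the carriers was not tested. Of named genes 32.7% passed the threshold, 17.2% lower and 15.5% higher. The share that passed was 17.6% of the loop, distal tubule and collecting duct markers and 16.7% of the podocyte and endothelial ones, both below that of named genes. It was 37.5% of the hepatocyte genes, all of these calls being lower, against the 17.2% of named genes that were lower. Proximal tubule markers other than these carriers fell in 18 of 19 cases (16 to 18 with 1 array left out), with a median of -3.01. Of the 19, 6 also stand in the partner lists described last. Their summed intensity was 19.46 to 20.37 in tolerated and 22.93 to 23.33 in syngeneic grafts on the log2 scale. All 11 macrophage and dendritic cell markers rose (6 without tolerated replicate 1 or 3, 7 without tolerated replicate 2), with summed intensities of 21.53 to 21.66 against 18.08 to 19.90. T cell markers rose in 6 of 8 cases, in 1 without syngeneic replicate 2 and in 0 without syngeneic replicate 1 or any 1 tolerated array (15.60 to 16.15 against 13.07 to 14.75). Markers of the loop of Henle, distal tubule and collecting duct had 2 lower and 1 higher of 17. Their median was -0.30 (20.76 to 21.32 against 21.62 to 21.70). The higher one missed without any array other than syngeneic replicate 3. The 2 lower ones, Egf (log2 fold change -3.32) and Klk1 (-3.51), passed in each fit with 1 array left out. Of 6 podocyte and endothelial markers 1 fell, with 2 lower without syngeneic replicate 3 and 0 without any other array (15.64 to 16.05 against 16.33 to 16.78). Hepatocyte genes fell in 6 of 16 cases (15.45 to 15.79 against 17.68 to 19.14), with the highest sum in syngeneic replicate 1. Their change was negative in 15 of the 16, with a median of -2.07. No marker was at 0 on any array. As a check of the kidney label, Slc34a1, the phosphate carrier that marks the proximal tubule, read 17.82, 17.81 and 18.44 in tolerated and 20.67, 20.56 and 20.56 in syngeneic grafts, far above the filter threshold on every array.

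The Slc22a family, which carries organic anions and cations, had the lowest median of the 12 families tested. All 9 tested members had negative changes, with a median of -4.02, and 7 of the 9 fell. That number was 7 in each fit with 1 array left out, and the share past the threshold was 77.8% against 32.7% of named genes. Slc22a6 (probe 21106686) encodes the carrier that takes up para-aminohippurate and many drugs from the blood in exchange for alpha-ketoglutarate. Its level was 14.91, 14.71 and 15.42 in tolerated replicates 1 to 3 and 19.73, 19.32 and 18.65 in syngeneic replicates 1 to 3. The lowest syngeneic array lay more than 3 log2 units above the highest tolerated array. The fall was 18.7-fold, and its 95% interval ran from 10.5 to 33.3 (by limma, a change of -4.22 ± 0.34, adjusted p = 0.00363).

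Slc22a8 encodes a second basolateral organic anion carrier, which also handles steroid sulphates and prostaglandins. Its tolerated levels were 13.97, 13.35 and 13.61 and its syngeneic levels 18.21, 17.88 and 16.91. The groups were again far apart, and the fall was 16.3-fold (8.54 to 31.0; limma, log2 fold change -4.02 ± 0.38, adjusted p = 0.00421). Slc22a25 (probe 21934502), a less studied member of the anion branch, changed most of all 54 carriers. It stood at 8.85, 8.12 and 8.92 in tolerated and at 14.10, 14.27 and 13.31 in syngeneic grafts, a change of -5.26 ± 0.35 (limma, adjusted p = 0.00363), with -5.52 to -5.06 over the fits with 1 array left out. Slc22a7, a carrier of organic anions and cyclic nucleotides, stood at 7.80, 7.62 and 7.73 in tolerated and 13.05, 12.40 and 11.50 in syngeneic grafts. Its change was -4.60 ± 0.40 (limma, adjusted p = 0.00406). The tolerated mean of Slc22a7 lay under the filter threshold and no measure of signal over background is in hand, so the size of that change rests on a dim level.

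Among cation carriers, 1 gene fell and its neighbour did not pass. Slc22a2 encodes the main basolateral uptake carrier for organic cations such as creatinine and metformin. It read 12.98, 12.85 and 14.09 in tolerated and 18.14, 18.42 and 17.73 in syngeneic grafts, a fall of 27.7-fold (14.3 to 53.8; limma, log2 fold change -4.79 ± 0.39, adjusted p = 0.00368). Slc22a3, the extraneuronal monoamine carrier, was dim and variable. It read 7.70, 9.16 and 10.02 in tolerated and 10.96, 9.76 and 8.09 in syngeneic grafts, so the groups overlapped (log2 fold change -0.64 ± 0.89, 95% interval -2.84 to 1.56, limma adjusted p = 0.635). The fold change of Slc22a3 ran from -1.39 to 0.03 over the fits with 1 array left out, and the difference between the 2 genes was not tested.

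The carnitine and ergothioneine carriers fell less far in size. Slc22a5 brings carnitine into cells for fatty acid oxidation, and it stood at 14.24, 14.03 and 13.90 in tolerated and 17.39, 16.87 and 15.90 in syngeneic grafts (log2 fold change -2.66 ± 0.39, limma adjusted p = 0.0103). Syngeneic replicate 3 was again the lowest of its group. Slc22a4, whose product carries ergothioneine, fell by 1.88 ± 0.18 on the log2 scale (limma, adjusted p = 0.00421); it is named here after its values were seen, as the remaining Slc22a gene past the threshold. Slc22a17, which encodes a receptor for the iron-binding lipocalin Lcn2, had levels of 12.19, 12.07 and 12.08 in tolerated and 12.46, 12.52 and 12.58 in syngeneic grafts. Its groups did not overlap, but the change of -0.41 ± 0.14 did not pass (95% interval -0.75 to -0.06, limma adjusted p = 0.0867). With the filter set at the median level, which leaves fewer probes to adjust over, Slc22a17 passed.

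Of 13 named genes for organic anion transporting polypeptides (Slco) 10 were tested, of which 3 fell and 1 rose, with a median of -0.54 against -0.04 for named genes. Past the threshold were 40% of the 10, against 32.7% of named genes. Those that fell were Slco1a1, Slco1a3 and Slco1a6, in all 6 fits with 1 array left out. Slco1a1 carries bile acids, steroid conjugates and other large anions in rat liver and kidney. It stood at 11.02, 11.21 and 12.42 in tolerated and 15.84, 16.16 and 16.21 in syngeneic grafts, a fall of 22.9-fold (11.7 to 45.0; limma, log2 fold change -4.52 ± 0.40, adjusted p = 0.00406). Slco1a6 stood at 12.71, 12.96 and 14.67 in tolerated and 17.60, 17.95 and 17.62 in syngeneic grafts. Tolerated replicate 3 was well above the other tolerated arrays and still below every syngeneic array (log2 fold change -4.27 ± 0.53, limma adjusted p = 0.00665). Slco1a3, a carrier of methotrexate and folates known from rat kidney, read 14.04, 13.60 and 14.93 in tolerated and 16.65, 16.97 and 17.24 in syngeneic grafts (log2 fold change -2.76 ± 0.38, limma adjusted p = 0.00837). In the RefSeq gene table of assembly GRCr8 these 3 genes are direct neighbours on chromosome 4, in the order Slco1a4, Slco1a1, Slco1a3, Slco1a6, Slco1a5. The outer 2 did not pass: Slco1a4 had 0.02 ± 0.51 (95% interval -1.22 to 1.27) and Slco1a5 -0.55 ± 0.28 (95% interval -1.25 to 0.15; limma adjusted p = 0.976 and 0.212). They are named after their values were seen, and both were dim, at 7.86 to 9.57 over the 6 arrays. The difference between them and the 3 that fell was not tested. The Slco1a genes are close relatives and the probe sequences are not in hand, so whether their probes share signal was not tested.

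Slco2b1 was the Slco gene that rose. Its product carries steroid sulphates and many oral drugs and is found in several cell types. Tolerated levels were nearly equal, at 14.41, 14.45 and 14.39, and syngeneic levels were 12.95, 12.71 and 13.54. The rise was 2.55-fold (1.68 to 3.87; limma, log2 fold change 1.35 ± 0.24, adjusted p = 0.0156). It passed without syngeneic replicate 3 and missed the threshold without any other single array (adjusted p up to 0.0578). Slco2a1, the prostaglandin carrier, had -0.79 ± 0.29 (limma, adjusted p = 0.0999), and was -0.50 without syngeneic replicate 1. Slco3a1 had 0.51 ± 0.47 (limma, adjusted p = 0.47), and passed without syngeneic replicate 2 at 1.06. Slco1b2, the liver-type carrier of bilirubin and bile acids, lay at 7.32 to 7.93 on all 6 arrays and was not tested.

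**Figure D3:**
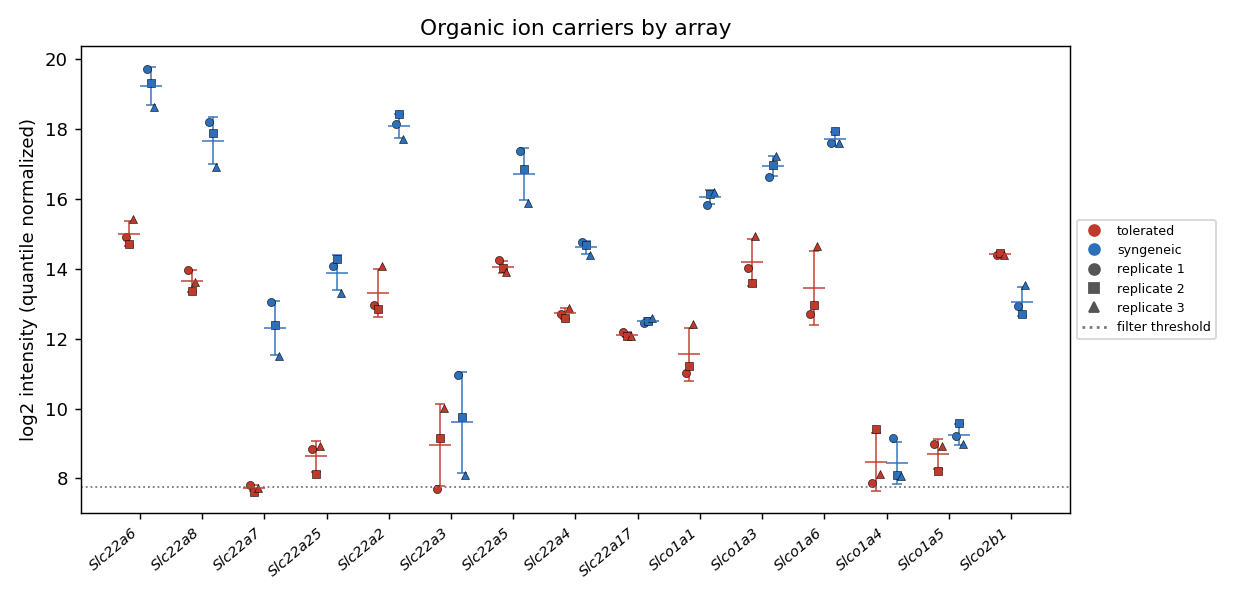
Log2 intensity (vertical axis) of 15 organic ion carriers in each array, with tolerated grafts on the left and syngeneic grafts on the right of each gene. Symbols mark the replicate number, bars the group mean with 1 SD (n = 3), and the dotted line the filter threshold of 7.76; Slc22a6, Slc22a8, Slc22a2 and Slco1a1 show wide gaps between groups, while Slc22a3, Slco1a4 and Slco1a5 overlap or lie close to the threshold.

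Position and promoter letters were set beside these changes as descriptions. In GRCr8, Slc22a25, Slc22a8 and Slc22a6 follow each other on chromosome 1 with no other coding gene between them, and all 3 fell. Slc22a2 and Slc22a3 are also direct neighbours on chromosome 1. Slc22a5 and Slc22a4, which both fell, are parted on chromosome 10 by Slc22a21. Promoter windows of 300 bases (250 before and 50 after the annotated start, RefSeq, GRCr8) matched 53 of the 60 genes, among them 20 of the 21 that fell. They were searched on both strands for sites of HNF1 and HNF4, transcription factors known to drive proximal tubule and liver genes. The motifs were chosen with the results known. The letters GTTAAT, a short form of the HNF1 site, were found in 6 of the 53 windows and in 7.45% of all 33469 windows. Of those 6 genes 2 fell (Slc22a25 and Slc22a8) and the other 4 did not pass or were not tested. The letters CAAAGTCC, a shortened HNF4 site, were in 1 of the 53 (Slco1a6) and in 1.40% of all. The full HNF1 palindrome was in 0 of the 53 and in 0.00299% of all windows, and CAAAGTCCA, the longer HNF4 site that contains the short one, in 0 of the 53 and 0.391% of all.

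The windows that held a match among the genes that fell are printed with that of Slco2b1, the organic anion carrier that rose. They were picked for their match. Of the 20 windows of genes that fell, 2 held the HNF1 letters and 1 the HNF4 letters. Most held neither, among them that of Slc5a2, and whether a match goes with a fall was not tested. They run 5′ to 3′ on the strand of the gene, with the matched letters in capitals. In Slc22a25 (chr1:214862291-214862590, minus strand) the HNF1 letters lie on the opposite strand and begin 141 bases before the start. In Slc22a8 (chr1:214927034-214927333, plus strand) they begin 93 bases before the start. In Slco1a6 (chr4:176838983-176839282, minus strand) the HNF4 letters lie on the opposite strand, 175 bases before the start. Slco2b1 (chr1:163408016-163408315, minus strand) held none of the 4 motifs.
Slc22a25: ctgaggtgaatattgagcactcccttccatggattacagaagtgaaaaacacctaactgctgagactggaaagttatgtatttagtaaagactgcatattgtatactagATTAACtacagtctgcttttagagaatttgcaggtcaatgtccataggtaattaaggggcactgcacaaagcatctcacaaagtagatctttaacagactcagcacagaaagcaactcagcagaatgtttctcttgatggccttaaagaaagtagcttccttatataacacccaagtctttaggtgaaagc
Slc22a8: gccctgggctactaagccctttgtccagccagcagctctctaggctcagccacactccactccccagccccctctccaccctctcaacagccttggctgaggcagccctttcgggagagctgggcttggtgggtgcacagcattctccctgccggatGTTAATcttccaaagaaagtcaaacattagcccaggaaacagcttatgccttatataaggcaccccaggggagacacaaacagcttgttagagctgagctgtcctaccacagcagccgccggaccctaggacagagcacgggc
Slco1a6: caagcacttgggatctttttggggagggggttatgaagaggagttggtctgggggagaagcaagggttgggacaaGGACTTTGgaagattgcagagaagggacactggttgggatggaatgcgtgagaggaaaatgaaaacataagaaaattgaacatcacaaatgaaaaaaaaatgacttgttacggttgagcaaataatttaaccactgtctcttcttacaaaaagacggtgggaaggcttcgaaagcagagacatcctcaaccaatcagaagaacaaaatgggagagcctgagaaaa
Slco2b1: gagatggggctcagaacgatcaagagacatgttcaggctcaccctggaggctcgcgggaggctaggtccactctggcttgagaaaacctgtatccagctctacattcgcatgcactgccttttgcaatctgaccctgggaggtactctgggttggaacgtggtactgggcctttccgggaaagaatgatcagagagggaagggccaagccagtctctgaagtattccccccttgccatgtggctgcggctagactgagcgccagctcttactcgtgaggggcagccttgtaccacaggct

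None of the 4 tested genes of the Slc10a family, which holds bile acid and sulphated steroid carriers, passed (limma). For 1 of them the unadjusted limma p was under 0.05. This was Slc10a1, the sodium-coupled bile acid carrier best known from liver. It stood at 8.65, 7.02 and 10.32 in tolerated and 11.48, 10.89 and 11.09 in syngeneic grafts, so that the groups did not overlap but the tolerated arrays spread over 3 log2 units (log2 fold change -2.49 ± 0.81, limma adjusted p = 0.073). Without tolerated replicate 3 it passed at -3.28, and with the filter at the median level it passed at -2.49. Slc10a2, the carrier that recovers bile acids in ileum and tubule, had -0.64 ± 0.35 (95% interval -1.49 to 0.21, limma adjusted p = 0.227). Slc10a4 and Slc10a6 had -0.05 and 0.01, and the sign of each changed when single arrays were left out.

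Of 15 named carriers of sugars and their family relatives in the Slc2a, Slc5a and Slc37a families 14 were tested, of which 5 fell and the other 9 did not pass. The share past the threshold was 35.7%, against 32.7% of named genes in either direction and 17.2% in the lower direction. Slc2a5, the fructose carrier of the brush border, fell furthest. Its level was 12.23, 11.13 and 11.90 in tolerated and 15.84, 15.47 and 15.10 in syngeneic grafts, a fall of 13.1-fold (7.26 to 23.8; limma, log2 fold change -3.72 ± 0.35, adjusted p = 0.00421). Khk, the ketohexokinase that phosphorylates fructose, is no carrier but belongs to the list of enzymes acting on the carried substrates. It stood at 13.00, 12.86 and 13.61 in tolerated and 17.45, 17.03 and 16.45 in syngeneic grafts (log2 fold change -3.82 ± 0.33, limma adjusted p = 0.00406), and is named after its values were seen.

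Both sodium-glucose carriers fell. Slc5a2 encodes the carrier that recovers most filtered glucose in the early proximal tubule. Its tolerated levels were 15.66, 15.85 and 15.90 and its syngeneic levels 17.63, 17.54 and 16.94, a fall of 2.95-fold (1.99 to 4.38; limma, log2 fold change -1.56 ± 0.23, adjusted p = 0.0103). Slc5a1, the high-affinity carrier of the later proximal tubule, read 10.77, 9.88 and 9.78 in tolerated and 11.71, 11.40 and 11.83 in syngeneic grafts. That change of -1.50 ± 0.31 (limma, adjusted p = 0.0219) missed the threshold without tolerated replicate 2 or 3 or syngeneic replicate 1 or 2 (adjusted p up to 0.0723). Slc5a6, which carries biotin and pantothenate, had -0.83 ± 0.20 (limma, adjusted p = 0.0339; up to 0.11 with 1 array left out). The count of lower Slc5a genes was therefore 3 with all arrays and 1 without tolerated replicate 2 or syngeneic replicate 1 or 2. Slc5a3, the sodium-coupled carrier of the osmolyte myo-inositol, had 0.46 ± 0.15 and did not pass (95% interval 0.09 to 0.84, limma adjusted p = 0.077). Slc5a5, the iodide carrier, had 0.11 ± 0.25 (95% interval -0.51 to 0.73), with signs that changed when single arrays were left out. Slc5a7 (choline) was dim, at 6.58 to 8.84, with a 95% interval of -1.78 to 1.79.

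The facilitative glucose carriers did not pass. Slc2a2, the low-affinity carrier on the blood side of proximal tubule cells, stood at 15.53, 14.00 and 14.35 in tolerated and 15.87, 15.89 and 15.42 in syngeneic grafts. Tolerated replicate 1 lay among the syngeneic values (log2 fold change -1.11 ± 0.42, 95% interval -2.15 to -0.06, limma adjusted p = 0.11), and without it Slc2a2 passed at -1.56. Slc2a1, the widely expressed glucose carrier, was higher in each tolerated array, at 16.75, 17.18 and 16.96 against 15.95, 16.14 and 16.52. Its change of 0.76 ± 0.22 missed the threshold narrowly (limma, adjusted p = 0.0514), passed without syngeneic replicate 3 at 0.91, on the deposited log2 values at 0.79, and after normexp, with array weights or with the filter at the median. It was 0.29 when arrays were scaled to equal medians. Slc2a4, the insulin-responsive carrier, had -0.94 ± 0.43 (95% interval -2.01 to 0.12, limma adjusted p = 0.167), and -0.58 without syngeneic replicate 2. Slc2a8 and Slc2a13 did not pass either, with groups at 13.75 to 14.06 against 13.19 to 13.64 and 11.67 to 12.42 against 12.12 to 13.15. Without syngeneic replicate 3 Slc2a8 passed at 0.66. Slc2a3 was dim, at 5.97 to 8.04, and was not tested.

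Slc37a4 brings glucose 6-phosphate into the endoplasmic reticulum, where glucose 6-phosphatase releases glucose. It stood at 14.05, 14.13 and 14.27 in tolerated and 16.82, 16.67 and 15.97 in syngeneic grafts, a fall of 5.05-fold (3.24 to 7.85; limma, log2 fold change -2.33 ± 0.26, adjusted p = 0.00561). G6pc1, the phosphatase itself, read 9.83, 9.52 and 9.94 in tolerated and 15.86, 14.71 and 12.60 in syngeneic grafts (log2 fold change -4.63 ± 0.81, limma adjusted p = 0.0146). Its syngeneic arrays spread over more than 3 log2 units, and it missed the threshold without any 1 tolerated array or without syngeneic replicate 2 (adjusted p up to 0.0573). Slc37a1, a phosphate-linked exchanger of glucose 6-phosphate, had 0.56 ± 0.26 (95% interval -0.07 to 1.19, limma adjusted p = 0.165) and passed without syngeneic replicate 3 at 0.79.

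Slc35 genes encode carriers of nucleotide sugars into the Golgi and endoplasmic reticulum, and relatives of less known substrate. Of 4 tested, 1 rose and 3 did not pass, and the median was -0.02. That share of 25% was near the 25.2% of all probes and below the 32.7% of named genes. Slc35e4, a member with no settled substrate, read 13.11, 13.04 and 13.14 in tolerated and 11.80, 11.79 and 12.55 in syngeneic grafts. Syngeneic replicate 3 stood nearest the tolerated arrays, and the rise was 2.07-fold (1.36 to 3.16; limma, log2 fold change 1.05 ± 0.25, adjusted p = 0.031). It missed the threshold without any array other than syngeneic replicate 3 (adjusted p up to 0.098) and when arrays were scaled to equal medians. Slc35a4 had 0.31 ± 0.14 (limma, adjusted p = 0.173), and -0.08 when arrays were scaled to equal medians. Slc35b1 had -0.59 ± 0.26 (limma, adjusted p = 0.155) and passed without syngeneic replicate 3 at -0.83. Slc35g2 overlapped between groups, at 9.04 to 10.49 in tolerated and 10.09 to 10.47 in syngeneic grafts.

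Of 4 monocarboxylate carriers tested, 1 fell, 1 rose and 2 did not pass, a share of 50% past the threshold against 32.7% of named genes. Slc16a1 encodes the widely expressed carrier of lactate, pyruvate and ketone bodies. It stood at 13.09, 12.82 and 12.53 in tolerated and 13.53, 13.85 and 13.68 in syngeneic grafts, a change of -0.87 ± 0.20 (limma, adjusted p = 0.0305) that passed without tolerated replicate 1 and missed the threshold without any other single array (adjusted p up to 0.0997). Slc16a3, the carrier with which glycolytic cells export lactate, was higher in tolerated grafts. It read 11.21, 10.37 and 10.87 against 9.76, 9.11 and 9.55, a rise of 2.54-fold (1.55 to 4.16; limma, log2 fold change 1.35 ± 0.29, adjusted p = 0.0243). It missed the threshold without tolerated replicate 1 or 3 or syngeneic replicate 1 or 2 (adjusted p up to 0.0799). Bsg, the membrane chaperone (basigin) that both carriers need to reach the cell surface, read 18.79, 18.64 and 18.75 in tolerated and 19.37, 19.30 and 19.39 in syngeneic grafts. Its change was -0.63 ± 0.14 (limma, adjusted p = 0.0268; up to 0.0902 with 1 array left out), and it is named after its values were seen. Slc16a7, a high-affinity pyruvate carrier, overlapped between groups (14.58, 15.05 and 15.85 in tolerated, 15.25, 15.61 and 15.56 in syngeneic), with a 95% interval of -1.17 to 0.54. Its change was -0.31 with all arrays, -0.02 without tolerated replicate 1 and -0.66 without tolerated replicate 3. Slc16a10, a carrier of aromatic amino acids and thyroid hormones, had 0.53 ± 0.25 (limma, adjusted p = 0.17).

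Of 3 fatty acid transport proteins 1 fell, a share of 33.3% past the threshold that was near the 32.7% of named genes. Slc27a2, which both imports long-chain fatty acids and activates very long-chain ones in proximal tubule and liver, stood at 14.08, 12.94 and 13.92 in tolerated and 17.19, 16.82 and 16.46 in syngeneic grafts. The fall was 9.03-fold (4.84 to 16.8; limma, log2 fold change -3.17 ± 0.37, adjusted p = 0.00597), and it passed with any 1 array left out. Slc27a1, the form of muscle and fat, had 0.21 ± 0.18 (95% interval -0.24 to 0.65, limma adjusted p = 0.452). Slc27a5, the bile acid ligase of liver, read 6.89, 8.09 and 7.99 in tolerated and 11.81, 8.20 and 9.66 in syngeneic grafts. Its syngeneic values spread widely with replicate 1 highest, and the change of -2.23 ± 0.93 did not pass (limma, adjusted p = 0.135; -1.30 without syngeneic replicate 1). The tolerated mean of Slc27a5 also lay under the filter threshold, so it was tested through its syngeneic levels and the size of its change is uncertain. Hepatocyte markers moved with that array: Alb read 17.66, 13.32 and 14.79 in syngeneic replicates 1 to 3 and the summed log2 intensity of the listed hepatocyte genes was 19.14, 17.74 and 17.68. Its part in the value of Slc27a5 was not tested.

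The reduced folate carrier gene Slc19a1 was the single vitamin carrier of its family with a named probe. It stood at 13.21, 13.04 and 13.06 in tolerated and 14.95, 14.98 and 14.41 in syngeneic grafts. The groups were well apart, and the fall was 3.19-fold (2.24 to 4.54; limma, log2 fold change -1.67 ± 0.21, adjusted p = 0.0066), with -1.85 to -1.56 over the fits with 1 array left out.

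Of 6 named nucleoside carriers 5 were tested, of which 3 fell and 1 rose. The share past the threshold was 80% of these few genes, against 32.7% of named genes. Slc28a1, the sodium-coupled carrier of pyrimidine nucleosides on the urine side, read 7.79, 8.67 and 9.81 in tolerated and 12.31, 12.02 and 11.26 in syngeneic grafts. The tolerated arrays differed among themselves by 2 log2 units and replicate 1 lay close to the filter threshold (log2 fold change -3.11 ± 0.56, limma adjusted p = 0.0157). It missed the threshold without tolerated replicate 2 or syngeneic replicate 1 or 2 (adjusted p up to 0.0614). Slc28a2, the sodium-coupled carrier of purine nucleosides, was higher in tolerated grafts, at 12.50, 11.92 and 12.04 against 11.34, 11.10 and 11.38. The rise was 1.84-fold (1.29 to 2.64; limma, log2 fold change 0.88 ± 0.21, adjusted p = 0.0318). It missed the threshold without any array other than syngeneic replicate 3, and when arrays were scaled to equal medians. Slc28a3 was dim (6.47 to 8.80) and was not tested.

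Equilibrative nucleoside carriers let nucleosides pass in both directions. Slc29a3, the form of lysosomes and mitochondria, fell by 1.33 ± 0.27 on the log2 scale, from 13.55, 13.63 and 12.95 in syngeneic to 12.38, 11.73 and 12.02 in tolerated grafts (limma, adjusted p = 0.0211; up to 0.0739 with 1 array left out). Slc29a1, the main adenosine carrier of the plasma membrane, had tolerated levels of 10.01, 9.28 and 10.14 and syngeneic levels of 10.73, 10.72 and 10.78. That change of -0.93 ± 0.26 passed narrowly (limma, adjusted p = 0.0478) but missed the threshold whichever single array was dropped (highest adjusted p 0.123). The count of lower Slc29a genes was 2 with all arrays, 1 without tolerated replicate 1 or syngeneic replicate 3 and 0 without any other array. Slc29a2 had 0.16 ± 0.17 (95% interval -0.26 to 0.58, limma adjusted p = 0.538).

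**Figure D4:**
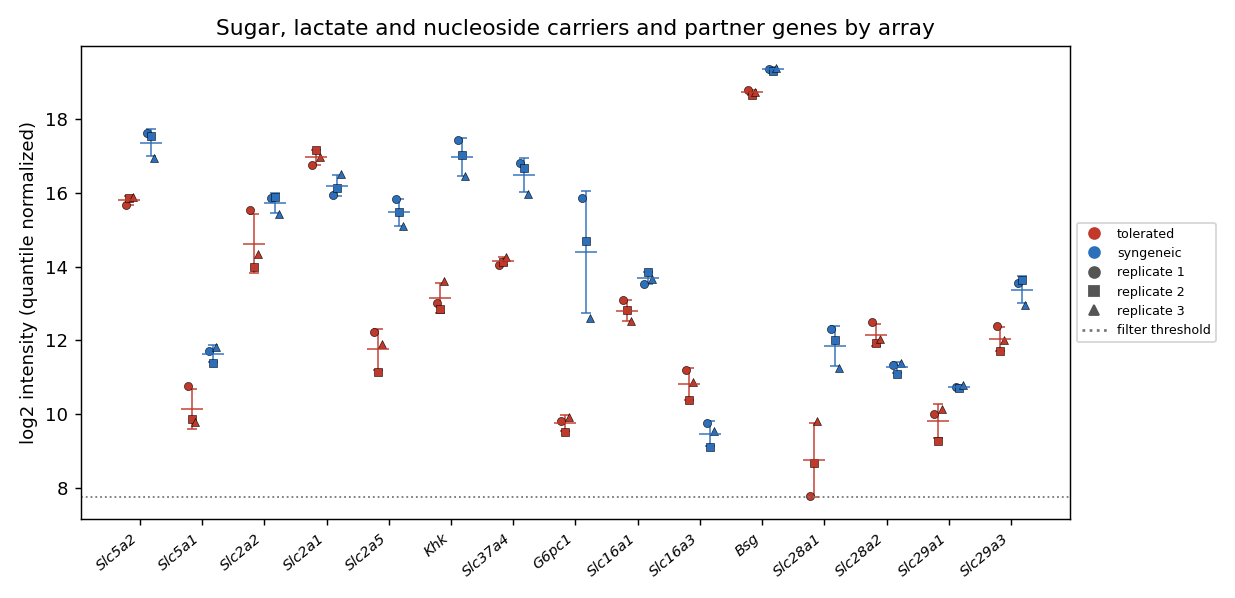
Log2 intensity (vertical axis) of 12 sugar, monocarboxylate and nucleoside carriers and of the partner genes Khk, G6pc1 and Bsg in each array, with tolerated grafts on the left and syngeneic grafts on the right of each gene. Symbols mark the replicate number, bars the group mean with 1 SD (n = 3), and the dotted line the filter threshold; Slc2a5 and Slc37a4 are lower in every tolerated array, Slc16a3 and Slc28a2 higher, and Slc2a2 overlaps.

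Genes that work with these carriers were taken from 4 lists. Of named genes, 32.7% passed the threshold, 17.2% lower and 15.5% higher. In the lists below 60% of the efflux pumps passed, 66.7% of the scaffold list, 42.9% of the transcription factors and 71.4% of the enzyme list. ATP-driven efflux pumps complete the passage of many organic ions out of the cell, and of 10 tested 5 fell and 1 rose, with a median of -0.91. Those that fell were led by Abcg2, an efflux pump for urate and drugs (-3.26 ± 0.35), Abcb1a, 1 of 2 rat genes for the drug pump P-glycoprotein (-2.77 ± 0.28), Abcb11, the bile salt pump (-2.44 ± 0.55), and Abcc6 (-1.87 ± 0.20; limma adjusted p = 0.00524, 0.00497, 0.0282 and 0.00524). Abcb11 was dim in tolerated grafts, at 7.73, 7.61 and 8.70, so the size of its change is uncertain. Its call was lost without any 1 tolerated array or without syngeneic replicate 2 (limma, adjusted p up to 0.0891). Abcc5 rose by 1.06 ± 0.25 (limma, adjusted p = 0.0313). The other P-glycoprotein gene, Abcb1b, named after its values were seen, read 10.72, 10.67 and 11.02 in tolerated and 7.74, 7.75 and 10.11 in syngeneic grafts. Its groups did not overlap, syngeneic replicate 3 stood far above the other syngeneic arrays, and the change of 2.27 ± 0.67 did not pass (limma, adjusted p = 0.056). It passed without syngeneic replicate 3 at 3.04, with array weights at 2.76 and with the filter at the median at 2.27. With 1 array left out the lower pumps numbered 3 without tolerated replicate 3 or syngeneic replicate 2, and the higher ones 2 without syngeneic replicate 3 and 0 without any other array.

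The list of scaffolds, chaperones and sodium pump subunits of the tubule numbered 12 tested genes. It also holds the endocytic receptor genes Lrp2 and Cubn and the kinase gene Sgk1. Of the 12, 8 fell and 4 did not pass, with a median of -1.10. Pdzk1, a scaffold that anchors organic ion carriers under the brush border, stood at 15.96, 15.45 and 15.89 in tolerated and 19.12, 18.84 and 18.25 in syngeneic grafts (log2 fold change -2.97 ± 0.28, limma adjusted p = 0.00421). Cltrn (collectrin), a trafficking partner of amino acid carriers, and the endocytic receptor genes Lrp2 and Cubn had -2.85 ± 0.36, -2.78 ± 0.31 and -2.10 ± 0.44 (limma adjusted p = 0.00664, 0.00561 and 0.0224). The lower genes of this list numbered 4 without tolerated replicate 2 or syngeneic replicate 1 or 2 and 5 without tolerated replicate 3.

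Transcription factors that control transporter genes were divided: 4 of 14 tested fell and 2 rose, with a median of 0.03. The share past the threshold was 42.9%, against 32.7% of named genes in either direction. Hnf4a, a nuclear receptor that drives proximal tubule genes, stood at 11.14, 10.34 and 11.36 in tolerated and 14.15, 14.11 and 13.59 in syngeneic grafts (log2 fold change -3.01 ± 0.33, limma adjusted p = 0.00537). The groups were clearly apart and it passed with any 1 array left out. The xenobiotic receptor gene Nr1i2, the bile acid receptor gene Nr1h4 and the oxysterol receptor gene Nr1h3 had -1.95 ± 0.31, -1.81 ± 0.31 and -0.83 ± 0.18 (limma adjusted p = 0.0123, 0.0145 and 0.0252). Pparg and Cebpb rose by 1.49 ± 0.38 and 1.08 ± 0.19 (limma adjusted p = 0.0377 and 0.0156). Without syngeneic replicate 2 the list had 1 lower and 0 higher genes. It had 0 higher genes also without tolerated replicate 3, and 1 without tolerated replicate 1 or 2 or syngeneic replicate 3.

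The list of enzymes that act on the carried sugars, folate and nucleosides had 8 lower and 2 higher of 14 tested genes. Its median was -1.99. It also holds the folate receptor gene Folr1, no enzyme, which was 1 of the 8 lower genes (log2 fold change -1.83). The gluconeogenic Pck1 and Fbp1 had -5.42 ± 0.34 and -4.87 ± 0.36, and Miox, which breaks down myo-inositol in the proximal tubule, had -4.06 ± 0.39 (limma adjusted p = 0.00363, 0.00363 and 0.00421). G6pc1 is given above. Hk2, an inducible hexokinase, rose from 8.23, 9.15 and 9.44 in syngeneic to 10.71, 11.20 and 10.53 in tolerated grafts (log2 fold change 1.87 ± 0.37, limma adjusted p = 0.0194). Akr1b1, the aldose reductase that forms sorbitol, rose by 0.90 ± 0.17 (limma, adjusted p = 0.0174). The lower genes of the list numbered 7 or 8 with 1 array left out. The higher ones numbered 0 without any 1 tolerated array, 1 without syngeneic replicate 1 or 2 and 2 without syngeneic replicate 3.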

How the data were processed

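The authors deposited raw probe intensity from the Applied Biosystems rat genome survey array, 1 array per sample with 0.5 µg of total RNA labelled, per the labels' protocols; scanner software, background treatment and flags: not given in the sources used here. They also deposited a table of log2 values with 1 median (9.36) in every column, which ranked probes exactly as the raw intensities did (rank correlation of 1); its method: not given in the sources used here. Raw medians were 760, 745 and 991 in tolerated and 421, 538 and 707 in syngeneic replicates 1 to 3, so the groups did not overlap. Quantile normalization and scaling to equal medians both remove this difference, and its source was not tested. Columns of other samples numbered 0. The number of arrays limits the precision.

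Raw intensities, none under 1, were log2-transformed and quantile normalized. Probes with a mean over all arrays above the lower quartile (7.76) were kept, 20142 of 26857. Groups followed the labels, and limma 3.58.1 under R 4.3.3 gave two-sided tests without covariates; p-values were adjusted over every tested probe by the Benjamini-Hochberg method. The procedure was run on simulated data with independent noise and few changed probes, as a check of the code only. It does not measure the errors in these data, where many more probes passed and arrays within a group differed. Genes were named from the platform annotation (6104 probes with 1 symbol, 70 with several and the rest with none listed here), with symbols updated through the RefSeq table of GRCr8, which held 6081 of them. No member's symbol changed.

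Genes named were, per family, up to 5 past the threshold in each direction and the 2 brightest others, a set of well-known carriers, and up to 4 in each direction per partner list. Outside this rule, and picked with their values in view, are Slc2a8, Slc2a13, Slc5a7, Slc10a6, Slc35g2, Slc16a8, Slco1b2, Slco6b1, Slco6c1, the marker examples and the genes so marked in the text. The members and lists were chosen with earlier results of these data known. Alternatives were median scaling, the deposited log2 values, normexp, other filters, averaging probes, a replicate block, array weights and leaving out each array.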

Additional observations from a re-analysis of the deposited data

How the results depend on the processing

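The number of carriers past the threshold was 25 with all arrays and 15 to 27 with 1 array left out, of which 15 to 20 were lower and 0 to 7 higher, and the median log2 fold change of the carriers ranged from -0.87 to -0.58. A replicate block gave 16 carriers (1 higher). Deviations from the group mean correlated at -0.00, 0.01 and 0.05 between samples of equal replicate number, for numbers 1 to 3. Not every sample correlated best with its own number. Values so near 0 cannot tell whether equal numbers pair the samples, and why calls were lost with the block was not tested. The number higher was 2 with arrays scaled to equal medians, 7 with the filter at the median and 8 with array weights. Scaling to equal medians moved the median of all probes from -0.02 to -0.15 and the split of all called probes from 2490 higher and 2585 lower to 1735 and 2886. The count of all probes past the threshold was 5075, and 1886 with the replicate block. Averaging probes changed nothing, since each carrier had 1. No called carrier changed direction under any alternative run. The cause of these shifts was not tested, though leaving out an array reduces the samples. Signal over background is not known. Dim levels therefore limit the sizes given for carriers such as Slc22a7, Slc22a25, Slc10a1, Slc27a5 and Slc28a1, and for the partner gene Abcb11.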

Other observations

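The 6 carriers left out of the test as too dim were Slc2a3, Slco1b2, Slco6b1, Slco6c1, Slc16a8 and Slc28a3, and their values lay between 5.70 and 8.80 on the log2 scale over the 6 arrays. Slc2a3, the glucose carrier of neurons and leukocytes, read 7.72, 6.68 and 8.04 in tolerated and 6.78, 5.97 and 6.64 in syngeneic grafts, so that the groups overlapped. Promoter windows of the carriers held a median of 10.5 CpG pairs in the 20 genes that fell and of 13 in the 26 that were tested and did not pass, with ranges of 0 to 39 and 1 to 38. The median was 7 in the 3 genes that rose and had a window, and 7 over all 33469 windows.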
